A study of Ovis aries with 48 samples.

Results

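The effect of prenatal testosterone (prenatal T) on the small and non-coding RNAs of visceral fat was examined in 8 of the 48 libraries of a sheep series, 4 from prenatal T sheep and 4 from control sheep of the same cohort. The members were the libraries that the labels give as visceral fat of the prenatal T cohort. The animals were female offspring. The mothers of the prenatal T sheep had received testosterone propionate in corn oil into the muscle, 100 mg (about 1.2 mg per kg) 2 times a week, over gestational days 30 to 90. What the mothers of these controls received is not stated in the labels, and neither is the age at sampling. Both groups lived together on a maintenance diet meant to prevent obesity, and each library came from whole tissue of 1 sheep, so it held every cell type of the depot. The prenatal T sheep were numbered 48, 185, 233 and 255, and the control sheep 098, 131, 132 and 201. Values below are listed in this order of sheep.

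Visceral fat surrounds the abdominal organs and, with the other white depots, stores and releases lipid under the control of insulin and catecholamines. Excess androgen before birth is used in sheep as a model of developmental programming, in which treated females later show features of polycystic ovary syndrome and insulin resistance. MicroRNAs are short RNAs that pair with messenger RNAs and lower their translation or stability. Small nucleolar RNAs (snoRNAs) lie mostly in introns of host genes and guide the chemical modification of ribosomal and spliceosomal RNA. Small nuclear RNAs (snRNAs) are the RNA parts of the splicing machinery, and long non-coding RNAs (lncRNAs) are longer transcripts without a protein product.

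The 8 visceral libraries held 260804 to 875937 reads over the 4 RNA classes, 260804 to 628793 in the prenatal T group, against 292002 to 875937 in the control group. Values are normalised reads, which the authors obtained by dividing each library's reads by a size factor set within the depot and RNA class. By their library numbers the samples fell into 2 sets. Sheep 48, 185 and 233 of the prenatal T group and 098 and 201 of the controls were in the later set, and 255 of the prenatal T group and 131 and 132 of the controls in the early set. A term for this set was larger than its error for many features (75 of 410 with adjusted p under 0.05 in limma, 46 of them higher in the later set), so results are also given with this term where it changed a call. The prenatal T libraries were more unlike each other than the controls. The median SD of log2 values within the group was 0.83 in prenatal T and 0.45 in control sheep for microRNAs, 0.78 and 0.58 for snoRNAs, 0.89 and 0.46 for snRNAs, and 0.97 and 0.55 for lncRNAs. Without sheep 255 the prenatal T medians were 0.53, 0.45, 0.57 and 0.70 in the same order of classes.

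No feature passed the main test. In simulated reads with known changes, that test called 3% of 2-fold and 24% of 4-fold changes. An absent call therefore does not show that an effect is absent. Of 410 features with a mean of at least 5 normalised reads (76 microRNAs, 172 snoRNAs, 30 snRNAs and 132 lncRNAs), limma called 0 at an adjusted p under 0.05 (0.0%), and 29 had an unadjusted p under 0.05 (7.07%), 20 higher (4.88%) and 9 lower (2.2%) in prenatal T. At this unadjusted level 2 microRNAs were higher and 2 lower (2.63% each), as were 15 and 5 snoRNAs (8.72 and 2.91%), 1 and 0 snRNAs (3.33 and 0.0%) and 2 and 2 lncRNAs (1.52% each). The smallest adjusted p was 0.134. Count models on the recovered reads called few: edgeR called 5 (1.22%; 44 with an unadjusted p under 0.05) and DESeq2 called 7 (1.71%; 49 with an unadjusted p under 0.05), all higher in prenatal T. Without sheep 255 edgeR called 4, all higher, and DESeq2 called 5, 4 higher and 1 (MIR133) lower. In the simulated reads DESeq2 called 17 of 1850 unchanged features, while limma and edgeR called 2 each. DESeq2 calls are therefore less secure. A limma fit with the library-set term called 7 (1.71%), all of them snoRNAs and higher (4.07% of the snoRNAs), but 0 without sheep 255. Sheep 255 was the only prenatal T library of the early set, so without it that fit compared the groups within the later set alone. Within the prenatal T group, sheep 255 and the early set cannot be told apart. A fit on the later set alone, with the same median difference in each class, called 2 (0.488% of features, 1.16% of the snoRNAs). snoRNAs were 4 of the 5 called by edgeR (2.33%) and 6 of the 7 called by DESeq2 (3.49%). They were all 6 called with the spread estimated over the 32 libraries of the cohort (1.46% of features, 3.49% of snoRNAs) and all 5 called on CPM, reads scaled to a common total, of all 4 classes (1.22 and 2.91%). All 4 prenatal T libraries lay above all 4 controls for 12 features (2.93%) and below them for 4 (0.976%). The filter let features pass through 1 group alone. Of the 172 snoRNAs, 4 passed with a prenatal T mean under 5 and 30 with a control mean under 5, so counts of higher snoRNAs include features that a low prenatal T level would have kept out of the test. Without the filter limma called 0 of 425 snoRNAs with any read, and 34 had an unadjusted p under 0.05, 28 higher and 6 lower. snoRNAs made up 10 of these 12 and 3 of these 4 features without overlap, or 5.81% and 1.74% of the snoRNAs tested. microRNAs made up 2 and 1 (2.63 and 1.32% of the microRNAs tested). The snoRNA counts are not counts of separate signals. LOC114110216 and LOC114112592 had the same reads in 8 of 8 visceral libraries, and LOC114117654 matched each in 6 of 8. All 3 are counted among the snoRNAs called by edgeR, DESeq2, the library-set term, the 32-library spread and CPM of all 4 classes. They are also among the 10 snoRNAs without overlap.

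**Figure D1:**
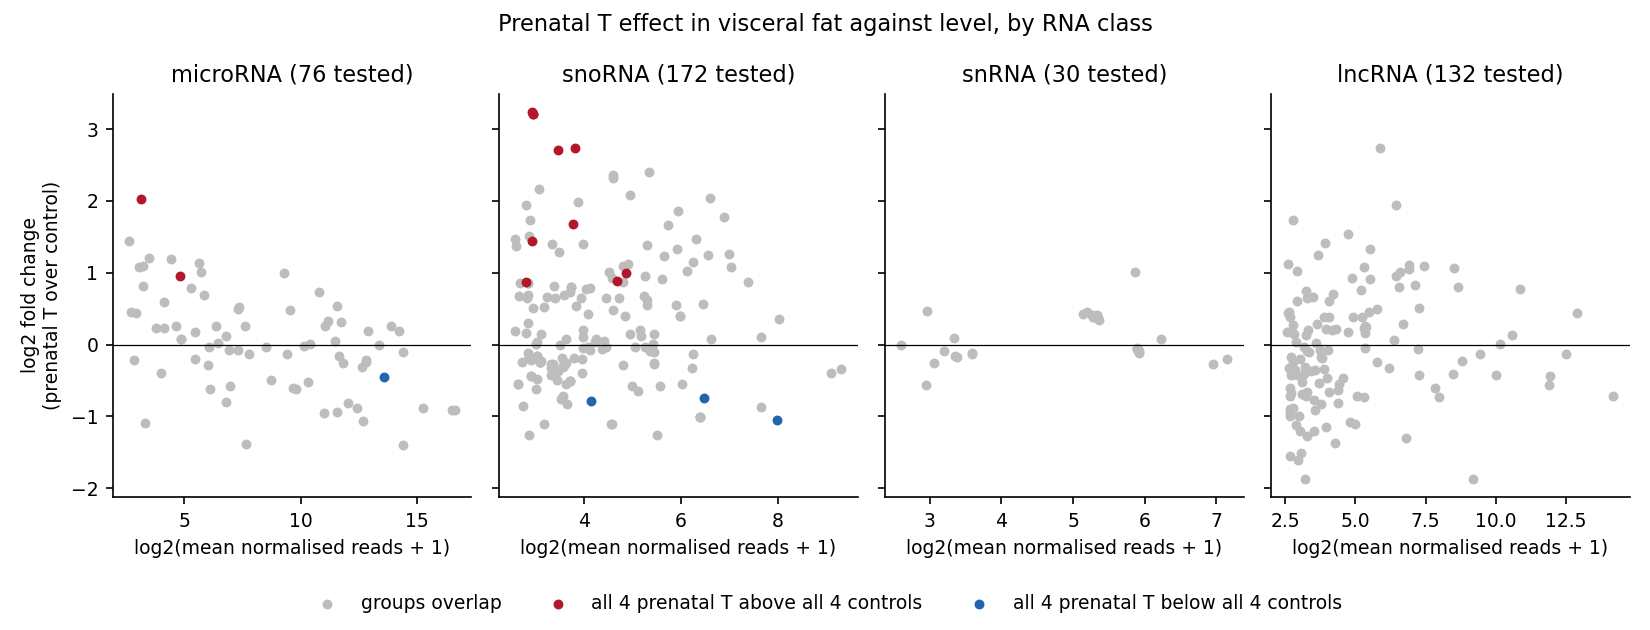
Log2 fold change (prenatal T over control, vertical axis) against the mean level over the 8 visceral libraries (log2 of normalised reads + 1, horizontal axis) for each feature tested, by RNA class. Red points are features with all 4 prenatal T libraries above all 4 controls and blue points those with all 4 below. Of the 12 red points 10 are snoRNAs, and the 5 with the highest fold changes among them have low levels. LOC114110216 and LOC114112592, both among these 5, have the same reads.

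The snoRNAs that stood furthest apart were 5 annotations with few reads in control visceral fat. Their prenatal T means were 13.2 to 24.4 normalised reads and their control means 0.181 to 2.10, so they passed the filter only through the prenatal T group and had to differ to be tested; their direction is a description, not support. LOC114110211, which lies in TAF1D, a gene for a subunit of a factor that starts ribosomal RNA transcription, had 16.6, 6.94, 14.7 and 59.3 normalised reads in prenatal T sheep, against 1.08, 1.85, 4.32 and 1.15 in controls. LOC114114240, which lies in FRS2, a gene for an adaptor of growth factor receptors, had 11.5, 5.45, 11.6 and 45.9 in prenatal T sheep, against 0.722, 1.85, 4.32 and 0 in controls. In both, sheep 255 was the highest of the 8 and the groups did not overlap. LOC114117654, in KIAA1217, had 6.4, 2.97, 14.7 and 28.7 in prenatal T sheep, against 0.722, 0, 0 and 0 in controls. LOC114110216, a second snoRNA of TAF1D, had 5.12, 2.97, 16.3 and 28.7 in prenatal T sheep, against 0.722, 0, 0 and 0 in controls. LOC114112592, on chromosome X with no host gene, had the same reads as LOC114110216 in 8 of 8 visceral libraries.

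On the log2(value + 1) scale the differences were 2.73 (SE 0.62) for LOC114110211, 2.71 (SE 0.72) for LOC114114240, 3.24 (SE 0.84) for LOC114117654 and 3.21 (SE 0.86) for LOC114110216 and LOC114112592. The limma adjusted p was 0.134 for each of the 5. As they passed the filter only through the prenatal T group, this and the adjusted p-values below describe them and are not support. Without the filter the limma adjusted p was 0.0783 for LOC114110211, 0.161 for LOC114114240 and 0.0757 for LOC114117654, LOC114110216 and LOC114112592. DESeq2 gave adjusted p-values of 0.00156 for LOC114110211, LOC114117654, LOC114110216 and LOC114112592 and 0.00565 for LOC114114240, though it called the most unchanged features in the simulated reads. edgeR gave 0.0453 for LOC114110211, 0.0411 for LOC114117654, LOC114110216 and LOC114112592, and 0.0976 for LOC114114240. Without sheep 255 the same 4 snoRNAs that edgeR called with all libraries, LOC114110211, LOC114117654, LOC114110216 and LOC114112592, had adjusted p-values of 0.0412 in edgeR and 0.0246 in DESeq2, while LOC114114240 lost its DESeq2 call (adjusted p = 0.0828). In limma without sheep 255 the adjusted p was 0.127 for these 4 snoRNAs and 0.231 for LOC114114240. With the library-set term and all libraries, limma called all 5. Without sheep 255 that fit gave an adjusted p of 0.0506 for LOC114110211 and LOC114114240 and 0.349 for the others. The later set alone held 3 prenatal T and 2 control libraries. There limma gave an adjusted p of 0.0367 for LOC114110211, 0.0408 for LOC114114240 and 0.201 for each of the other 3.

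These values rest on small numbers of reads. LOC114117654 had 45 reads over the 4 prenatal T libraries and 2 over the 4 controls, a ratio of 24.9 per unit of size factor, with an exact 95% counting interval of 6.50 to 212. LOC114110216 had 46 reads in prenatal T and 2 in control libraries, a ratio of 25.4 (6.65 to 216). LOC114110211 had 77 and 9 reads, a ratio of 9.46 (4.73 to 21.5). These intervals cover counting error only. The 5 annotations are also not separate measurements: LOC114117654 and LOC114110216 had equal reads in 6 of 8 visceral libraries, and over the 32 libraries of the cohort the log2 values of LOC114110211 and LOC114114240 had a Pearson r of 0.88, with library and depth in common. The sources used here do not say how reads were divided among copies in the genome, so which copy gave the reads is uncertain.

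**Figure D2:**
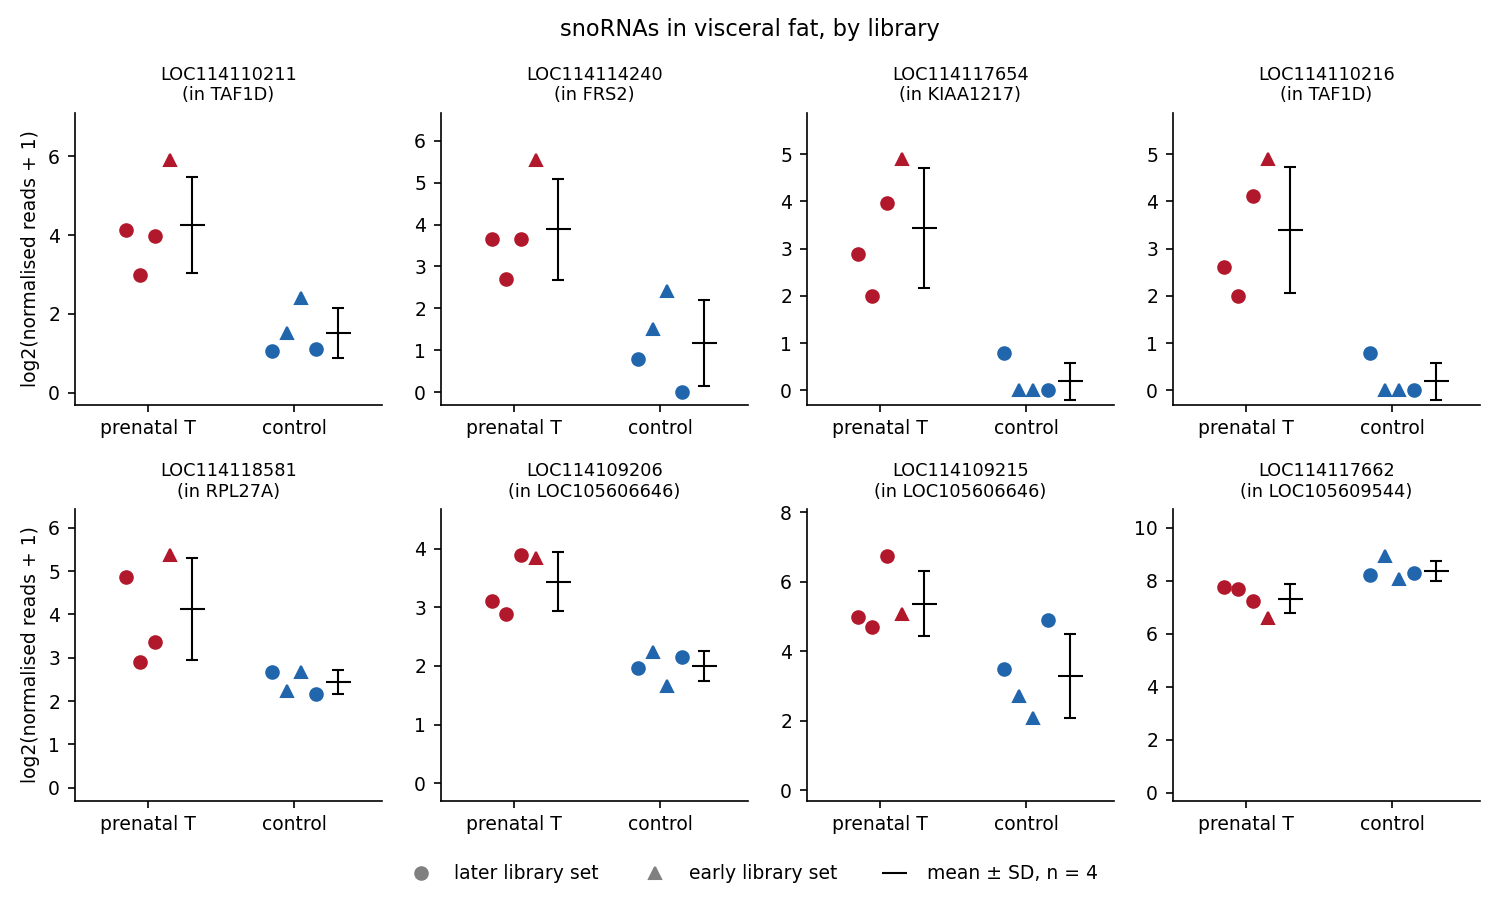
Level of 8 snoRNAs (log2 of normalised reads + 1, vertical axis) in each visceral library, prenatal T left of control in each panel; circles are the later and triangles the early library-number set, and the black bar is the mean ± SD (n = 4). The groups do not overlap in 7 panels, and in LOC114109215 the lowest prenatal T value of 24.8 lies under the highest control value of 28.8. The panels are a choice from the 410 features tested, of which 12 were higher and 4 lower without overlap. LOC114110211, LOC114114240, LOC114117654, LOC114110216, LOC114118581 and LOC114109206 have control means under 5 and passed the filter only through the prenatal T group. LOC114112592 is not drawn, since it has the same reads as LOC114110216.

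The same 5 snoRNAs were also low in both groups of the other depots. Their group means there ran up to 4.26 normalised reads in prenatal T and 3.31 in control fat, both for LOC114110216 in subcutaneous fat, on scales set separately for each depot. They did not enter the fit across depots, since their mean over the 32 libraries was under 5. In visceral fat of the other cohort of the series, whose controls received vehicle and whose treated sheep bisphenol A before birth, LOC114110211 ran from 5.13 to 18.8 normalised reads in 4 bisphenol A sheep and from 2.27 to 68.4 in 4 controls. LOC114117654 ran from 2.05 to 6.26 in these bisphenol A sheep and from 1.14 to 21 in these controls. These values come from a table normalised separately, so they are not set against the prenatal T values.

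Other snoRNAs of ribosome-related hosts differed less. LOC114118581, in RPL27A, a gene of the large ribosomal subunit, had 28.1, 6.44, 9.29 and 40.2 normalised reads in prenatal T sheep, against 5.42, 3.7, 5.4 and 3.46 in controls (log2 difference 1.69, SE 0.55; limma adjusted p = 0.257, DESeq2 adjusted p = 0.0497, or 0.312 without sheep 255). The groups did not overlap, with sheep 48 and 255 highest. Its control mean was under 5 normalised reads, so it passed the filter only through the prenatal T group. LOC114110700, in RPS2 of the small subunit, had 6.4, 9.42, 13.2 and 32.5 in prenatal T sheep, against 3.25, 7.39, 7.56 and 2.31 in controls, and passed only with the library-set term (limma adjusted p = 0.0342; 0.36 without the term, and 0.338 with it but without sheep 255). Of 53 snoRNAs in genes of ribosomal proteins, 28 were tested, 2 of them with a control mean under 5 and 0 with a prenatal T mean under 5. Of the 28, 19 had a positive and 9 a negative difference. Their median was 0.13, against 0.11 over all snoRNAs tested (0.07 without control 131 and 0.35 without sheep 185), and 3 had an unadjusted p under 0.05, all higher. Over all snoRNAs tested, 15 of 172 were higher at this level (8.72%). In TAF1D, 4 of 8 snoRNAs were tested, and besides the 2 above LOC114110209 had a difference of 0.93 and LOC114110210 one of -0.77, with unadjusted p-values of 0.21 and 0.17 in limma.

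A separate group of snoRNAs lies in LOC105606646, in the imprinted DLK1-DIO3 region of chromosome 18. In this region the maternal chromosome expresses a long run of snoRNAs and microRNAs, and in sheep it carries the callipyge mutation of muscle growth. Of 33 snoRNAs listed there, 6 passed the filter, 3 of them with a control mean under 5 and 0 with a prenatal T mean under 5, so their signs are no support for a direction. Of all 33, 20 had any read in visceral fat, 16 with a positive and 4 with a negative difference (median 0.59, against 0.11 over the 425 snoRNAs with any read). The 33 together took 1.30, 1.39, 3.22 and 1.165% of snoRNA reads in prenatal T sheep, against 0.705, 0.500, 0.951 and 1.166% in controls. Sheep 233 was far above the rest, and sheep 255 and control 201 were level. LOC114109206 had 7.68, 6.44, 13.9 and 13.4 normalised reads in prenatal T sheep, against 2.89, 3.7, 2.16 and 3.46 in controls (1.44, SE 0.41; limma adjusted p = 0.162), with no overlap. It is 1 of the 3 with a control mean under 5, so its separation is a description, not support. LOC114109215 had 30.7, 24.8, 106.1 and 32.5 in prenatal T sheep, against 10.1, 5.55, 3.24 and 28.8 in controls (2.08, SE 0.67; limma adjusted p = 0.257). Sheep 233 was the highest of the 8, and control 201 overlapped the prenatal T group. The remaining 4 of the 6 had differences of 0.53 to 1.51 and overlapping groups.

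The microRNAs of the same region were measured at higher levels. Of 60 on the list 54 were in the table and 27 were tested, 19 with a positive and 8 with a negative difference. The median was 0.44, against 0.01 over all microRNAs tested, and 2 had an unadjusted p under 0.05, both higher. These were the only 2 of all 76 microRNAs tested that were higher at this level (2.63%). Without sheep 233 the median was 0.09, and on CPM of the class, which moved the median of all microRNAs to 0.45, it was 0.82. Of the 27, 3 passed with a control mean under 5 and 0 with a prenatal T mean under 5. MIR3955 had 6.89, 7.97, 16.3 and 21.5 normalised reads in prenatal T sheep, against 1.44, 2.24, 2.48 and 2.6 in controls (2.03, SE 0.52; adjusted p = 0.192 in limma, 0.0501 in edgeR and 0.0392 in DESeq2, the DESeq2 value being 0.435 without sheep 255). No control reached the lowest prenatal T value, on 85 reads in prenatal T and 8 in control libraries; with a control mean of 2.19 it passed the filter only through the prenatal T group. MIR495 had 34.4, 29.2, 48.8 and 28.6 in prenatal T sheep, against 26.6, 11.2, 17.4 and 16.9 in controls (0.96, SE 0.46; limma adjusted p = 0.477), also with no overlap. MIR369 had 6.89, 15.9, 18.7 and 16.5 in prenatal T sheep, against 2.88, 4.48, 9.11 and 6.5 in controls (1.21, SE 0.53; limma adjusted p = 0.477). MIR127, the most abundant member and a microRNA antisense to the imprinted gene RTL1, had 3307, 3815, 4752 and 2523 in prenatal T sheep, against 2006, 2039, 2901 and 2908 in controls (0.53, SE 0.28; limma adjusted p = 0.477). The summed list took 0.992 to 3.05% of microRNA reads in prenatal T and 0.578 to 1.15% in control libraries, so the groups overlapped.

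The same RNAs were followed in the other depots. Of the 6 snoRNAs that passed in visceral fat, whose median there was 1.40 after that choice, 1 had a positive and 5 a negative difference in epicardial fat, around the heart (median -0.87), and 3 of 3 tested were positive in perirenal fat (median 1.0). The 27 microRNAs had medians of 0.44 in visceral, -0.01 in subcutaneous (23 tested), -0.06 in epicardial and 0.59 in perirenal fat (27 tested in each of the last pair). The visceral effect was set against the mean effect in the other 3 depots in 1 limma fit over 32 libraries. It differed by 1.53 (SE 0.53) for LOC114109206 and by 2.20 for LOC114109215, with adjusted p-values of 0.201 and 0.252, so no member of the group was called different between depots. LOC114109206 had passed the visceral filter only through the prenatal T group.

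**Figure D3:**
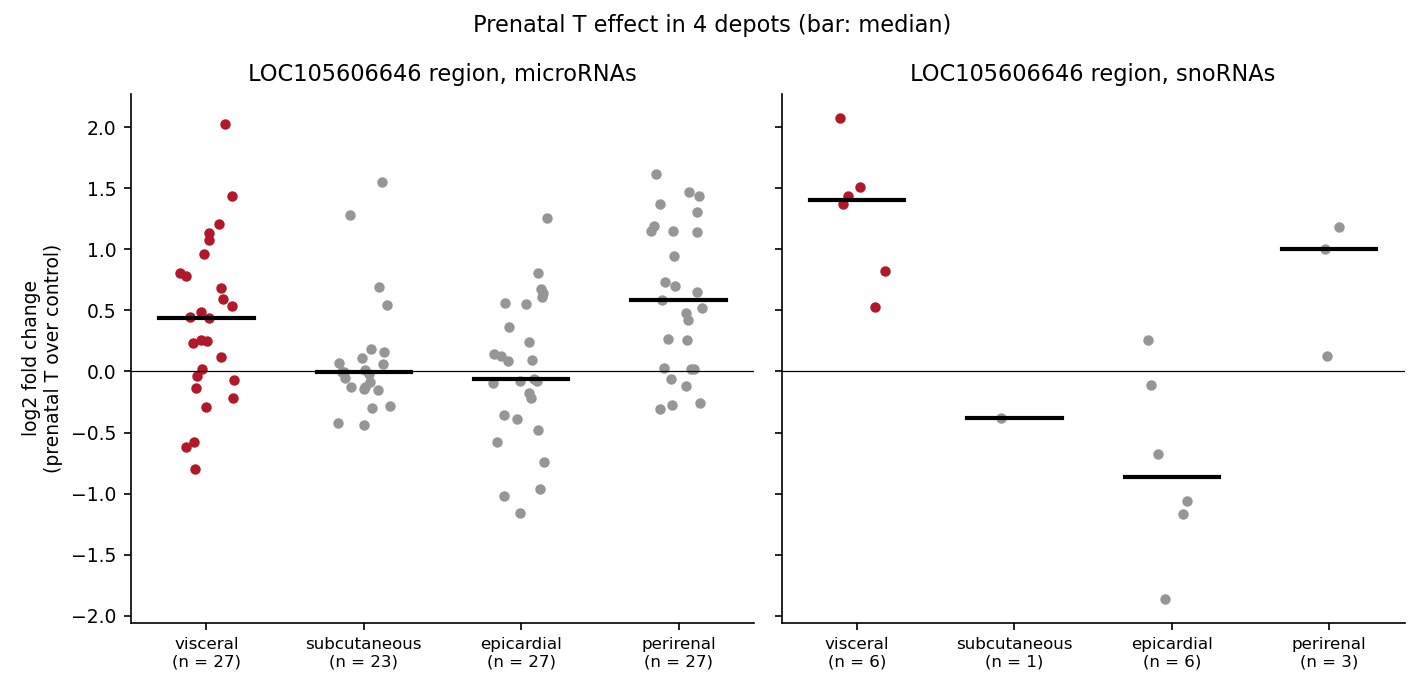
Log2 fold change (prenatal T over control, vertical axis) in each of the 4 depots for the microRNAs (left) and snoRNAs (right) of the LOC105606646 region that were tested in visceral fat; each point is 1 RNA, black bars are medians and n is the number measured in that depot. The visceral snoRNA points lie above 0 (median 1.40), 3 of the 6 having passed the filter only through the prenatal T group, and 5 of 6 epicardial points lie below 0.

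Some snoRNAs were lower in value in prenatal T sheep. LOC105609544, an lncRNA gene on chromosome 13, hosts 3 snoRNAs that were among the more abundant of visceral fat, and all 3 had a negative difference (median -0.87). LOC114117662 had 216, 206, 152 and 95.7 normalised reads in prenatal T sheep, against 294, 486, 266 and 317 in controls (-1.05, SE 0.36; limma adjusted p = 0.282), with no overlap. LOC114117663 had 192, 100.1, 127.01 and 142 in prenatal T sheep, against 187, 381, 256 and 212 in controls (-0.87, SE 0.35; limma adjusted p = 0.36). The 3 together took 14.4, 12.6, 9.72 and 6.97% of snoRNA reads in prenatal T sheep, against 15.6, 26.6, 21 and 16.2% in controls. Every prenatal T library was thus under every control, though sheep 48 lay close to control 098. This host group was formed after values were seen and holds LOC114117662, so its summed share is a description, not support. In a limma fit with the spread estimated over all 32 libraries of the cohort, LOC114117662 was called lower (adjusted p = 0.028). LOC114111253, in the translation factor gene EIF4A2, had 11.5, 15.4, 9.29 and 19.1 in prenatal T sheep, against 18.4, 49.9, 32.4 and 26.5 in controls (-1.11, SE 0.42; limma adjusted p = 0.347), and shares reads with LOC114110359.

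The microRNA pool differed mostly between sheep within the prenatal T group. The let-7 family, which restrains growth and developmental genes, made up 71.0 and 72.2% of microRNA reads in prenatal T sheep 48 and 185 but 44 and 35.1% in 233 and 255, against 71.7, 69.5, 55.8 and 69.5% in controls. Sheep 48 and 185 lay among the controls, and sheep 233 and 255 lay below all of them. All 7 measured let-7 genes had a negative difference, with a median of -0.88, against 0.01 over all microRNAs tested (-0.43 without sheep 255 and -0.50 without sheep 233), and 0 had an unadjusted p under 0.05 in limma. Neither edgeR nor DESeq2 called any. MIRLET7G was the 1 member whose groups did not overlap, with 12378, 10114, 8258 and 11865 normalised reads in prenatal T sheep, against 13570, 14399, 16514 and 13361 in controls (-0.45, SE 0.28; limma adjusted p = 0.507). On CPM of all 4 classes its difference was 0.02, so its direction depended on the scaling. The median of the 7 was -0.44 on CPM of the class, which moved the median of all microRNAs to 0.45.

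Other abundant microRNAs took up the share in sheep 233 and 255. MIR143, a smooth muscle microRNA that also promotes fat cell formation, took 2.16, 1.94, 5.34 and 15.4% of microRNA reads in prenatal T sheep, against 1.96, 2.73, 4.51 and 2.11% in controls. MIR99A took 2.65, 3.37, 12.9 and 9.23% in prenatal T sheep, against 2.15, 3.47, 8.08 and 3.10% in controls. Control 132, with the lowest let-7 share of the controls, had their highest shares of MIR143 and MIR99A. MIR125B, which limits fat cell formation, went the other way in sheep 255 only, with 5.06, 4.32, 5.47 and 0.678% in prenatal T sheep, against 5.97, 6.43, 4.73 and 6.48% in controls. In normalised reads none of them was called, with differences of 0.25 (SE 0.45) for MIR143, 0.19 (SE 0.40) for MIR99A and -1.40 (SE 0.75) for MIR125B.

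The let-7 share was also followed in the other depots of these sheep. In subcutaneous, epicardial and perirenal fat let-7 took 43, 43.3 and 25.0% of microRNA reads in sheep 255 and 43.2, 49.3 and 39.9% in sheep 233. Sheep 48 had 61.7, 42.6 and 49.1% in these depots and sheep 185 had 54.9, 39.3 and 51.8%. In the same order of depots, controls 098, 131, 132 and 201 had 56.7, 50.4 and 69.4%, 62.6, 64.7 and 51.8%, 42.2, 55.0 and 45.8%, and 64.6, 54.3 and 43.6%. In epicardial fat all 4 prenatal T sheep (39.3 to 49.3%) thus lay below all 4 controls (50.4 to 64.7%), while the groups overlapped in subcutaneous and perirenal fat. All 4 epicardial controls and prenatal T sheep 48 and 233 were in the later library set there, and sheep 185 and 255 in the early set. In subcutaneous fat only control 201, and in perirenal fat only control 098, was in the later set. These shares were not tested between groups or between library sets.

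**Figure D4:**
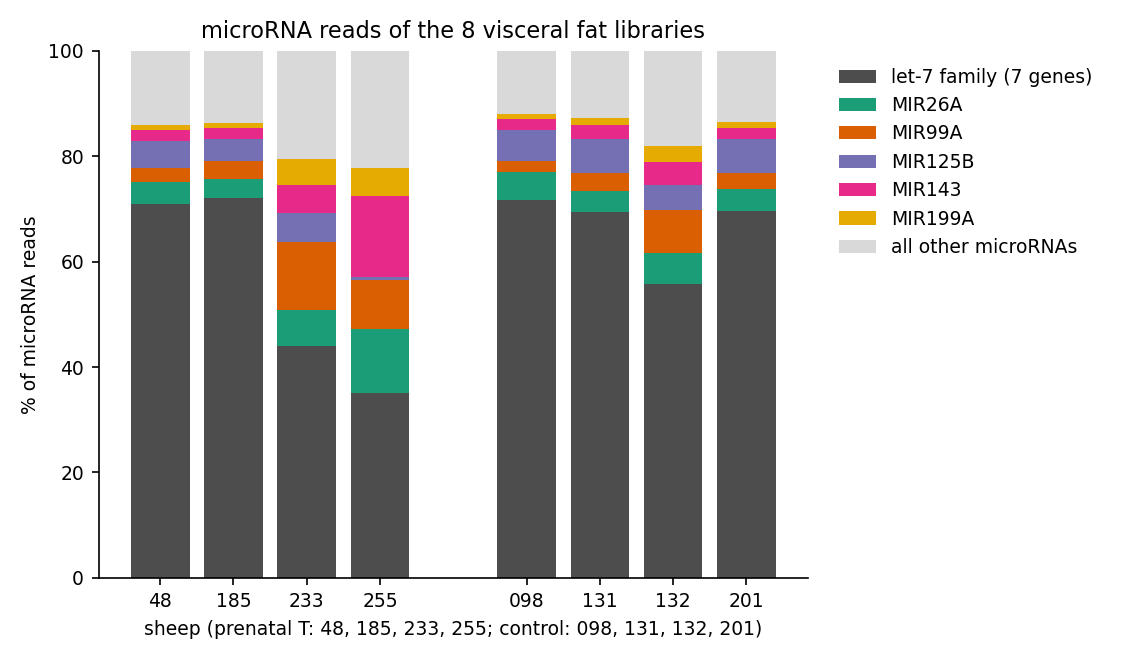
Share of microRNA reads (%, vertical axis) of the let-7 family, 5 other abundant microRNAs and all others in each visceral library, the 4 prenatal T sheep left of the 4 controls. Sheep 233 and 255 have let-7 shares of 44 and 35.1%, below the lowest control share of 55.8% in sheep 132; sheep 48 and 185 lie at 71.0 and 72.2%.

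Of 4 tested microRNAs from clusters linked to cell growth none was called, and 2 had an unadjusted p under 0.05, both with a negative difference. These were the only 2 of all 76 microRNAs tested that were lower at this level (2.63%). MIR25, from an intron of the replication gene MCM7, had 6019, 4831, 2332 and 3030 normalised reads in prenatal T sheep, against 7143, 9070, 6140 and 6011 in controls (-0.89, SE 0.34; limma unadjusted p = 0.0242, adjusted p = 0.477). MIR16B, from the condensin gene SMC4, had 3555, 2593, 1739 and 995 in prenatal T sheep, against 4458, 4330, 3091 and 3589 in controls (-0.94, SE 0.38; limma unadjusted p = 0.0302, adjusted p = 0.477). In each, 1 prenatal T sheep, 48, overlapped the controls. MIR106B, also in MCM7, differed by -0.62 (SE 0.34) and MIR17 by 0.23 (SE 0.53). Of 16 microRNAs on this list, 6 were in the table and 4 tested. The list took 2.09, 1.76, 1.92 and 1.84% of microRNA reads in prenatal T sheep, against 2.41, 2.62, 2.90 and 2.30% in controls. All prenatal T shares were under all control shares, and this held in the low let-7 libraries as in the others. Most of the sum was MIR25 (0.973 to 1.25% in prenatal T, 1.30 to 1.76% in control) and MIR16B (0.410 to 0.726%, against 0.776 to 0.884%). MIR106B shares were also all lower (0.178 to 0.212%, against 0.215 to 0.259%), while MIR17 shares overlapped. The sum mostly restates MIR25 and MIR16B, so it is a description, not support. This was 1 of 16 microRNA lists examined.

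**Figure D5:**
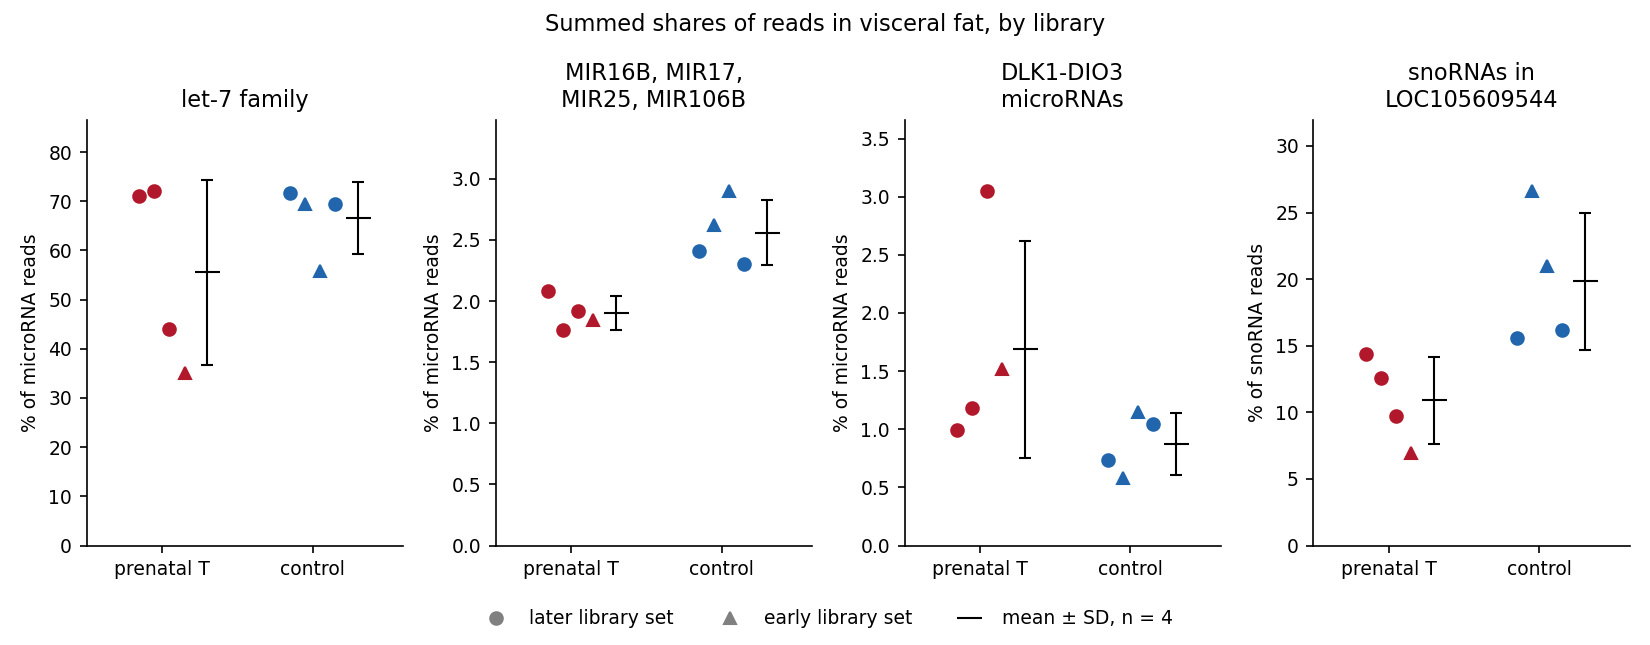
Summed share of reads (%, vertical axes starting at 0) of 4 groups of RNAs in each visceral library, prenatal T left of control; circles are the later and triangles the early library-number set, and black bars are mean ± SD (n = 4). The groups are apart for the cell growth microRNAs (1.76 to 2.09% in prenatal T, 2.30 to 2.90% in control) and for the snoRNAs of LOC105609544 (6.97 to 14.4% and 15.6 to 26.6%), and overlap for let-7 and the DLK1-DIO3 microRNAs. The cell growth sum is mostly MIR25 and MIR16B.

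MicroRNAs with known parts in fat biology showed no called difference. Of 14 tested that favour fat cell formation, 8 had a positive and 6 a negative difference (median 0.14), with MIR21, which is raised in inflamed and fibrotic tissue, at 1.0 (SE 0.55) and MIR103, which lowers insulin sensitivity in mice, at -0.49 (SE 0.28). MIR21 took 0.0652, 0.0785, 0.639 and 0.524% of microRNA reads in prenatal T sheep, against 0.106, 0.0418, 0.133 and 0.0540% in controls. Sheep 48 and 185 thus lay within the control range, and sheep 233 and 255, with low let-7, lay above it. Of 7 tested that oppose it, 2 were positive and 5 negative (median -0.26). MIR221 of that group had 505, 831, 685 and 551 normalised reads in prenatal T sheep, against 1419, 940, 877 and 731 in controls (-0.61, SE 0.30; limma adjusted p = 0.477), and only sheep 185 overlapped the controls. Of 13 tested with parts in insulin and glucose handling, 4 were positive and 9 negative (median -0.32), 7 of the 13 being let-7 genes. Of 9 reported to respond to androgen, 5 were positive and 4 negative (median 0.01), and of 3 linked to inflammation, 1 was positive and 2 negative. None of the members of these lists had an unadjusted p under 0.05 in limma. Leaving out 1 library at a time, the medians ranged from 0.05 to 0.15 for the 14, -0.42 to -0.15 for the 7, -0.40 to -0.20 for the 13 and -0.14 to 0.15 for the 9.

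Markers of other cell types could be followed only through microRNAs. Those of endothelium (1) and erythrocytes (6) were not in the tables used here, so these cells could not be followed. Among epithelial and mesothelial markers 3 of 10 were measured: MIR200B had 2.3, 52.2, 78.1 and 30.8 normalised reads in prenatal T sheep, against 20.1, 96.2, 59.6 and 5.2 in controls. The list took 0.000449 to 0.0408% of microRNA reads in prenatal T and 0.00394 to 0.0208% in control libraries, and both MIR200A and MIR200C were at 0 in sheep 48. MIR150, the 1 of 5 leukocyte markers measured, had 2430, 2718, 552 and 671 in prenatal T sheep, against 3464, 3019, 1623 and 2061 in controls, so it was lowest in the 2 sheep with low let-7. Of 2 smooth muscle markers, MIR143 was measured, with the shares given above. MIR133 of striated muscle, 1 of 8 measured, had 66.6, 33.6, 52.2 and 196 in prenatal T sheep, against 98.6, 886, 198 and 63.7 in controls. The 3 measured of 5 fibroblast and mesenchyme markers took 0.94, 1.10, 5.0 and 5.52% of microRNA reads in prenatal T sheep, against 1.17, 1.27, 3.18 and 1.08% in controls, and were thus high where let-7 was low. MIR133 was called lower by DESeq2 without sheep 255 (-2.60, adjusted p = 0.0193), with control 131 far above the rest; no other marker was called by limma, edgeR or DESeq2, and their part in the differences above was not tested. In whole tissue, fewer cells of a type and less RNA per cell cannot be told apart. The microRNAs listed as present in fat (MIR143, MIR103, MIR107, MIR30A and MIR30C) were all measured, but none is specific to it, so the tissue label could not be checked more closely.

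Among snRNAs 1 was called, by edgeR alone. LOC114115462 had 69.4, 26.1, 31.0 and 207.6 normalised reads in prenatal T sheep, against 22.6, 20.6, 57.5 and 24.7 in controls (1.01, SE 0.50). Sheep 255 was the highest and control 132 overlapped the prenatal T group. edgeR called it (adjusted p = 0.0361), while the adjusted p was 0.95 in limma and 0.923 in DESeq2. Without sheep 255 the edgeR call was lost (0.36, adjusted p = 0.964, against 1.40 with all libraries), and the limma difference was 0.41. The next smallest p-values in limma belonged to LOC114111412 (0.45, SE 0.50) and LOC114111395 (0.43, SE 0.50), whose sign turned on CPM of all 4 classes (-0.04 and -0.06). LOC114117093, an abundant snRNA, differed by -0.27 (SE 0.32).

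Among lncRNA features LOC105609364 had 514, 319, 358 and 32.7 normalised reads in prenatal T sheep, against 1031, 834, 350 and 1173 in controls (-1.87, SE 0.82; limma adjusted p = 0.665). Sheep 255 was the lowest of the 8, and control 132 lay among the prenatal T values. LOC101110918 had 46.4, 17.1, 50.6 and 515 in prenatal T sheep, against 13.5, 14.8, 26.9 and 15.2 in controls (1.95, SE 0.87; limma adjusted p = 0.665). This gene hosts the snoRNA LOC114114248, which had 34.5, 9.91, 36.4 and 629.5 in prenatal T sheep, against 5.42, 18.5, 21.6 and 10.4 in controls. Both were highest in sheep 255, far above every other library, and the snoRNA passed in limma only with the library-set term (2.73, adjusted p = 0.0402; 1.51 and 0.349 without sheep 255). Without sheep 255 the limma differences were 0.98 for LOC101110918 and -0.99 for LOC105609364. LOC114109082 differed by 1.34 (SE 0.54), LOC105603235 by 1.42 (SE 0.68) and LOC114113884 by -1.87 (SE 0.85), all with a limma adjusted p of 0.665 and overlapping groups.

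The shares of the 4 RNA classes overlapped between the groups, and none was called different. MicroRNAs took 85.3 to 92.8% of reads in prenatal T and 83.9 to 87.5% in control libraries (difference 2.21 points; exact two-sided permutation p = 0.343, n = 4 each). lncRNA features took 5.99 to 12.3% in prenatal T and 11.3 to 13.6% in control libraries (difference -2.40 points; exact two-sided permutation p = 0.114, adjusted over 4 classes 0.457). snoRNAs differed by 0.24 and snRNAs by -0.04 points, with exact two-sided permutation p-values of 0.571 and 0.514. The smallest p this design allows is 0.0286.

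No feature was called particular to visceral fat. The prenatal T effect in visceral fat minus its mean effect in subcutaneous, epicardial and perirenal fat was tested for 389 features, of which limma called 0 (0.0%) and 38 had an unadjusted p under 0.05 (9.77%). LOC114118581 in RPL27A had the smallest p, with a difference between depots of 2.74 (SE 0.83; adjusted p = 0.201). With the library-set term LOC105609364 was called lower in visceral fat relative to the other depots by 2.29 on the log2 scale (SE 0.55; limma adjusted p = 0.0339), 1 of 389 (0.257%). With the sheep as a replicate block, since each gave all 4 depots, 0 were called.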

How the data were processed

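RNA was read as small RNA libraries (NEBNext kit) from total RNA of fat, per the labels' protocols. Reads were trimmed with cutadapt 3.2, aligned with STAR 2.6.0c and counted with featureCounts 1.6.1, per the submitters' processing notes; the genome build, the strand setting and the treatment of reads with several matches are not given in the sources used here. Values the authors deposited were a normalised signal, reads divided by a size factor, in 1 table per RNA class and cohort. Dividing these values by their step gave whole reads for 100% of values (tolerance 1e-05), and in the 8 visceral libraries the recovered factors equalled median-of-ratios factors over the same libraries, so values compare only within a depot and class. All table columns matched a sample.

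Groups came from the labels. The main test was limma 3.58.1 with a trend (R 4.3.3) on log2(value + 1) per class, on features with a mean of at least 5 over the 8 libraries, with Benjamini-Hochberg adjustment within the class and a threshold of 0.05. Fold changes understate the change of low features. edgeR 4.0.16 and DESeq2 1.42.0 on recovered reads were alternatives, since the deposited values are not counts. Class shares had exact permutation tests. Scripts were tested on simulated data. Of 100 features changed 2-fold limma called 3, edgeR 4 and DESeq2 11, and of 100 changed 4-fold they called 24, 22 and 44. Of 1850 unchanged features limma and edgeR each called 2 and DESeq2 called 17. Labels name separate sheep. Treated and control sheep differ, so the visceral contrast has no pairs; sheep numbers pair only depots of 1 animal. Named were the smallest p-values (8 microRNAs, 5 of each other class), every feature called by a listed fit, the 8 most abundant microRNAs, the smallest p of each list and all measured cell type markers; others in the text were named from their values. The members and lists were chosen with earlier results of these data known, and the snoRNA host groups after seeing values. Host genes and chromosomes come from RefSeq (ARS-UI_Ramb_v3.0), which matched 105 of 105 microRNAs, 621 of 694 snoRNAs, 1010 of 1148 snRNAs and 1372 of 2973 lncRNAs; coordinates are not used here.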

Additional observations from a re-analysis of the deposited data

Results flagged for a closer look

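In 16 of 136 groups of 4 libraries, 1 library lay further from the rest than Dixon's 95% limit. Sheep 132 was the library set apart in 7 of them, 098 in 4, 255 in 3, and 233 and 48 in 1 each. For independent, normally spread values chance gives about 1 in 20, but these groups are not independent. LOC114117654, LOC114110216 and LOC114112592 had the same control values, and let-7 genes enter several of the groups flagged for sheep 132. In control sheep 132 let-7 took 55.8% of microRNA reads, the microRNAs that favour fat cell formation 17.6%, those of insulin and glucose handling 61.1% and the fibroblast and mesenchyme markers 3.18%, lncRNA features took 11.3% of all reads, MIRLET7C had 26930 normalised reads and LOC101110918 had 26.9. In control sheep 098 MIR411A had 14.4 normalised reads, the lowest of the controls, and LOC114117654, LOC114110216 and LOC114112592 had 0.722 each, where the other controls had 0. In prenatal T sheep 255 lncRNA features took 5.99% of reads, MIR10B had 1581 normalised reads and snoRNAs of ribosomal protein genes took 12.8% of snoRNA reads. In prenatal T sheep 233 the snoRNAs of LOC105606646 took 3.22% of snoRNA reads, and in prenatal T sheep 48 MIR369 had 6.89 normalised reads.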

How the results depend on the processing

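The count of 0 features called by limma became 5 on CPM of all 4 classes, 5 with edgeR, 7 with DESeq2, 7 with the library-set term, 2 in the later set alone and 6 with 1 spread over 32 libraries; it stayed at 0 with CPM of the class, pseudocounts of 0.5 and 5, no filter, a mean of at least 20, adjustment over all classes, and without each library in turn (0 to 0). Without sheep 255, chosen after seeing the data, edgeR called 4, DESeq2 5 and the set term 0. The count of features differing from the other depots was 1 with the set term and 0 with CPM of the class, a pseudocount of 5, a mean of at least 20 or any 1 visceral library left out; no call changed with the sheep as a replicate block (0 called). Scaling to CPM of the class or of all 4 classes moved the microRNA median to 0.45 and 0.48. Of 926 values of the 46 named features, 31 turned sign, none of them called in limma, edgeR or DESeq2. On CPM of all classes LOC114111412 was at -0.0385, LOC114111395 at -0.0594, LOC114111383 at -0.0720 and MIRLET7G at 0.0199. MIR26A was at 0.33 and 0.37 on CPM of the class and of all, MIR200B at 0.24 and 0.28, and MIR152 at 0.40 and 0.44. With edgeR MIR200B was at 0.0368 and MIR152 at 0.11, and MIR152 was at 0.0349 with DESeq2. With the set term MIR200B was at 0.23 and MIR152 at 0.20, and in the later set alone at 1.07 and 0.0901; the snRNA share there differed by 0.0207 points. Without 1 library each, MIR26A ranged from -0.28 to 0.0046, MIR99A from -0.0259 to 0.43, MIR143 from -0.19 to 0.48, MIR200B from -0.95 to 0.79, MIR218A from -0.0546 to 0.68, MIR152 from -0.32 to 0.23, MIR199A from -0.0603 to 0.43 and the snRNA share difference from -0.0756 to 0.00677 points. The cause of these changes was not tested. Depth limits the snoRNAs with 2 control reads most, where only a wide ratio can be given.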

Other observations

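The other 5 snoRNAs without overlap between the groups were named after their values were seen. Of these, LOC114110203 had a control mean under 5 normalised reads, so it passed the filter only through the prenatal T group. LOC114114247, in the chromatin gene KANSL2, had 28.1, 33.2, 40.3 and 47.8 normalised reads in prenatal T sheep, against 10.5, 24, 27 and 15 in controls (0.99, SE 0.43; limma adjusted p = 0.36). LOC114110203, in the lncRNA LOC114110053, had 8.96, 7.43, 7.74 and 7.65 in prenatal T sheep, against 5.78, 3.7, 2.16 and 4.61 in controls (0.87, SE 0.39; limma adjusted p = 0.36). LOC114117649, for which no host was found, had 26.9, 28.3, 30.2 and 44 in prenatal T sheep, against 22.8, 11.1, 14 and 21.9 in controls (0.88, SE 0.40; limma adjusted p = 0.36). Lower in value were LOC114113393, in the translation factor gene EEF1B2, with 71.6, 65.9, 77.4 and 44 in prenatal T sheep, against 78.0, 155, 80.0 and 133 in controls (-0.74, SE 0.41; limma adjusted p = 0.432), and LOC114111821, in DKC1, a gene for a snoRNA-bound enzyme, with 7.68, 13.9, 12.4 and 11.5 in prenatal T sheep, against 14.8, 42.5, 14 and 17.3 in controls (-0.78, SE 0.43; limma adjusted p = 0.432).

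Among microRNAs not yet described, MIR374A had 18.4, 16.8, 11.5 and 76.0 normalised reads in prenatal T sheep, against 10.8, 6.71, 12.4 and 9.1 in controls (1.19, SE 0.61; limma adjusted p = 0.477), with sheep 255 highest. Of 5 microRNAs of the HOX clusters 2 were tested, 1 with a positive and 1 with a negative difference. MIR10B, which lies beside HOXD4, a gene of body axis patterning, had 684, 725, 617 and 1581 in prenatal T sheep, against 455, 801, 573 and 603 in controls (0.48, SE 0.35; limma adjusted p = 0.638).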
